A study of Homo sapiens with 6 samples.

Results

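The 10 genes described here belong to the NRF2 antioxidant pathway and were chosen by name, as the regulators NFE2L2 and KEAP1 and 8 NRF2 target genes, HMOX1, NQO1, GCLM, GCLC, TXNRD1, SRXN1, SLC7A11 and OSGIN1. All 10 were found among the 58735 genes of the deposited table. They were measured by RNA-seq in SZ95, an immortalised cell line from human sebaceous gland. The control group was labelled wild type and transfected with a mock plasmid (3 libraries), and the other was transfected with a plasmid for TRPV3, a calcium-permeable cation channel of skin (3 libraries), both labelled 24 h. The series' design text calls the replicates biological and asks about TRPV3 in sebocyte inflammation. The labels give neither the promoter of the plasmid nor the share of cells that took it up, so each value is a mean over transfected and untransfected cells.

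NRF2, encoded by NFE2L2, is a transcription factor that is held at a low level by KEAP1, which hands it to a ubiquitin ligase for destruction. Oxidants and electrophiles modify cysteines of KEAP1, and NRF2 then accumulates, pairs with a small MAF protein and switches on genes with an antioxidant response element in their regulatory DNA. This step acts mainly on the protein, so the mRNA of NFE2L2 is a weaker readout than the mRNA of its targets. Skin cells meet oxidants from ultraviolet light, microbes and lipid peroxidation, and the pathway is best known there from keratinocytes.

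None of the 10 genes passed the test between the groups. Values were compared as log2(FPKM + 1), FPKM being fragments per kilobase of gene with depth scaled out, by limma. Benjamini-Hochberg adjustment covered the 12177 genes whose mean reached 1 FPKM, and called means an adjusted p under 0.05. All 10 were tested, 0 were called, and their limma adjusted p-values lay between 0.755 and 0.975. The background was low too, since 0.0411% of all genes tested were called, all of them higher with TRPV3. TRPV3 itself, the gene carried by the plasmid, was among those called. Before adjustment 0 of 10 had a limma p under 0.05, against 4.48% of all genes. Without TRPV3 replicate 1 and mock replicate 3 together 4 of 10 did (KEAP1 and SLC7A11 lower, SRXN1 and OSGIN1 higher), against 7.75% of all genes, and 0 were called. Limma-voom on recovered reads also called 0 of 10, against 0.0493% of all genes, and limma without TRPV3 replicate 1 called 0 of 10, against 0.0657%. Of the 10 fitted log2 fold changes 5 were above 0, against 53% of all genes, and their median was -0.01 beside 0.01 over all genes. Without TRPV3 replicate 1 there were again 5 above 0, against 53.7%. The 95% interval of the fold change stayed inside 2-fold either way for all 10 genes and inside 1.5-fold for 8 of them; the exceptions were SRXN1 and SLC7A11. By limma-voom 4 intervals passed 1.5-fold, with HMOX1 (upper bound 0.60 on the log2 scale) and OSGIN1 (0.64) added, and with a pseudocount of 0.1 OSGIN1 passed it as well (0.63).

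The libraries held between 16015998 and 18365785 recovered reads, and the check of the transfection was TRPV3 itself, at 0.404 ± 0.0400 FPKM (SD, n = 3) in mock and 648 ± 103 FPKM (SD, n = 3) with the TRPV3 plasmid. TRPV3 replicate 1 stood apart from the other libraries: it was the highest or lowest of the 6 in 76.9% of the 12177 genes, where the other 5 libraries were so in 16.8% to 36.2%. It was high in short genes and low in long ones, with a median deviation from the gene's mean of 0.26 (log2) for 1474 genes under 1500 bases and -0.18 for 4205 genes over 6000 bases. Of 11 sebocyte markers 8 reached a mean of 1 FPKM. In mock (SD, n = 3) KRT7 was at 513 ± 15.4 FPKM, SCD at 227 ± 22.4, FADS2 at 21.5 ± 2.08 and MUC1 at 20.7 ± 1.24. SOAT1 was at 12.9 ± 0.677, PPARG at 7.28 ± 0.287, PLIN2 at 1.62 ± 0.248 and ELOVL3 at 1.09 ± 0.348 FPKM. PRDM1 and MC5R stayed under that mean, at 0.703 and 0.0048 FPKM over the 6 libraries. AWAT2, a wax ester enzyme of mature sebocytes, was at 0 in every library. The summed level of 7 immune cell markers was 1.52 to 1.82 FPKM in mock and 1.22 to 1.82 FPKM with TRPV3, and that of 7 fibroblast markers was 2.47 to 3.05 and 2.11 to 2.25 FPKM. The keratinocyte sum of 161 to 193 FPKM in mock and 169 to 182 FPKM with TRPV3 was mostly KRT5 (160 ± 15.1 and 149 ± 5.24 FPKM). KRT10 was at 16.0 ± 2.58 and 19.9 ± 1.06 FPKM (SD, n = 3 each). Every TRPV3 library of KRT10 lay above the mock libraries, as in 9.49% of all genes (limma adjusted p = 0.755).

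The DNA letters that NRF2 recognises were looked for near the starts of these genes, to show which carry the element close to the promoter. The core of the antioxidant response element was searched as TGACNNNGC, and in its longer form TGACNNNGCA, on both strands of the 250 bases before each start in RefSeq (GRCh38.p14). RefSeq starts were held for 8 of the 10 genes, with 11 promoters in all, and not for HMOX1 and SLC7A11. The core was found in 4 of these 11 promoters (KEAP1, GCLM and TXNRD1 at 2 starts) and the longer form in 3, against 10.9% and 2.59% of 35116 promoters of the same length. In the lines below the capitals mark the 9 bases of the core; the first 3 match on the opposite strand and hold the longer form, and the last 2 match on the gene's strand. KEAP1 has 2 matches in 1 promoter and 0 in its other promoter.
GCLM, chr1:93909446-93909474, minus strand: tacgatttctGCTTAGTCAttgtcttcca
KEAP1, chr19:10502784-10502812, minus strand: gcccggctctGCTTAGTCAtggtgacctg
TXNRD1, chr12:104286920-104286948, plus strand: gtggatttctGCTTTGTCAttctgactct
TXNRD1, chr12:104215650-104215718, plus strand: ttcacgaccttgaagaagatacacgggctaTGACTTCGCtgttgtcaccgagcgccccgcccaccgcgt
KEAP1, chr19:10502807-10502835, minus strand: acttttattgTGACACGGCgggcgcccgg
The match of GCLM ended 26 bases before its start, those of KEAP1 23 and 46, and those of TXNRD1 94 and 91. All 29 printed bases of both KEAP1 lines and of the TXNRD1 line at 104286920 lie in annotated exons. So do 11 of the 29 printed for GCLM, and 0 of the other TXNRD1 line. GCLM and the KEAP1 match nearer its start carry the same 9 letters. A match of letters is a description and not a bound site, and no match in this window says nothing about elements farther away.

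**Figure D1:**
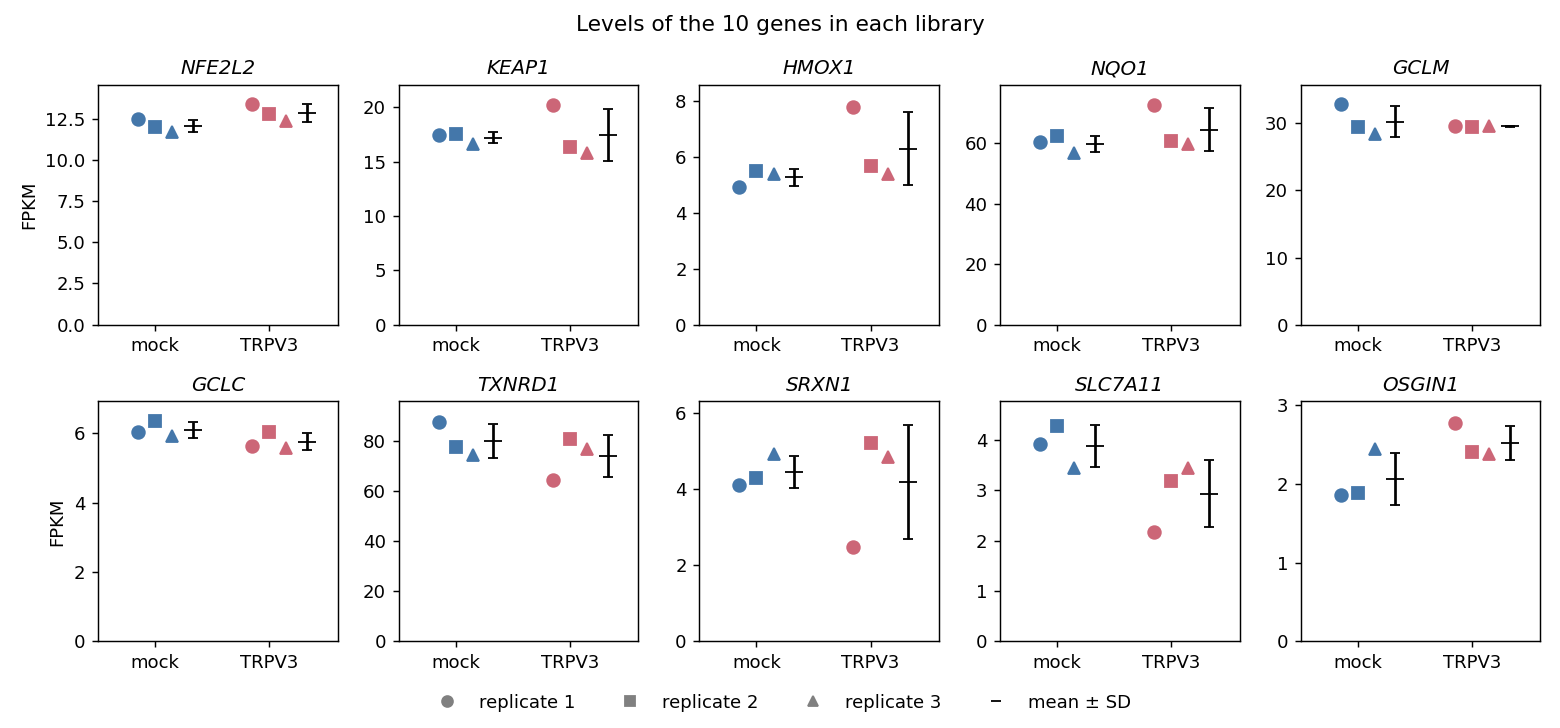
FPKM of each of the 10 genes (vertical axes from 0, one scale per gene) in the 3 mock libraries (blue) and the 3 TRPV3 libraries (red), with the marker giving the replicate and the black bar the mean ± SD. TRPV3 replicate 1 (circle) is the highest of 6 libraries in NFE2L2, KEAP1, HMOX1, NQO1 and OSGIN1 and the lowest in TXNRD1, SRXN1 and SLC7A11.

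Of the regulators, NFE2L2 (ENSG00000116044, chromosome 2, 177227595 to 177392697, minus strand, hg38) was at 12.4, 12.02 and 11.7 FPKM in mock replicates 1 to 3 and 13.4, 12.8 and 12.3 FPKM in TRPV3 replicates 1 to 3. The groups overlapped, because the lowest TRPV3 library lay under the highest mock library. The log2 fold change was 0.08 (SE 0.07, 95% interval -0.08 to 0.25), a value that was -0.01 when values were scaled to TPM. The median over all genes tested moved by -0.09 with that scaling. NFE2L2 shares 54 exonic bases with AGPS on the opposite strand, a gene with 1844 to 2970 reads, and no source used here states whether strand was used in counting. On the same strand NFE2L2 shares 1054 of its 5979 exonic bases with AC019080.1, which was given 16 to 38 reads per library.

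KEAP1, the adaptor that marks NRF2 for degradation (ENSG00000079999, chromosome 19, 10486120 to 10503741, minus strand), was at 17.5, 17.5 and 16.7 FPKM in mock and 20.2, 16.3 and 15.8 FPKM with TRPV3. TRPV3 replicate 1 lay above every mock library and TRPV3 replicates 2 and 3 below every one. The log2 fold change of 0.01 (95% interval -0.23 to 0.25) was -0.09 without TRPV3 replicate 1 (95% interval -0.21 to 0.02). It was also below 0 under TPM, quantile and total-read scaling, and these scalings lowered the median over all genes tested as well.

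HMOX1, haem oxygenase 1, splits haem into biliverdin, iron and carbon monoxide and is a strongly inducible NRF2 target (ENSG00000100292, chromosome 22, 35380361 to 35394214, plus strand). It was at 4.92, 5.48 and 5.41 FPKM in mock and at 7.80, 5.69 and 5.39 FPKM with TRPV3. Only TRPV3 replicate 1 stood clear of the rest, with 331 reads and an exact Poisson 95% interval of 6.98 to 8.69 FPKM; counting intervals cover counting error only. TRPV3 replicate 3 lay inside the mock range and replicate 2 just above it. The fitted fold change on the log2 scale was 0.20 (SE 0.13, 95% interval -0.10 to 0.51, adjusted p = 0.755 by limma) and 0.06 without TRPV3 replicate 1 (95% interval -0.10 to 0.22).

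NQO1 reduces quinones in a single step and so keeps them from redox cycling (ENSG00000181019, chromosome 16, 69706996 to 69726951, minus strand). Its levels of 60.2, 62.2 and 56.9 FPKM in mock and 72.5, 60.8 and 59.8 FPKM with TRPV3 showed the same arrangement, a high TRPV3 replicate 1 and the other 2 TRPV3 libraries inside the mock range. Its log2 fold change was 0.10 (95% interval -0.13 to 0.33), and 0.01 without TRPV3 replicate 1 (95% interval -0.11 to 0.14).

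Glutathione synthesis was represented by both subunits of its first enzyme and by a transporter, and none of the 3 passed the test. GCLC, the catalytic subunit of glutamate-cysteine ligase, which makes the first bond of glutathione (ENSG00000001084, chromosome 6, 53497341 to 53616970, minus strand), was at 6.04, 6.36 and 5.92 FPKM in mock and 5.64, 6.04 and 5.59 FPKM with TRPV3. GCLM, its modifier subunit (ENSG00000023909, chromosome 1, 93885205 to 93909456, minus strand), was at 32.8, 29.5 and 28.4 FPKM in mock and 29.6, 29.4 and 29.6 FPKM with TRPV3. The 3 TRPV3 libraries of GCLM agreed to within 0.01 on the log2 scale and lay inside the mock range, and GCLM and GCLC were the only members in which TRPV3 replicate 1 was not an extreme. Their log2 fold changes were -0.03 (95% interval -0.22 to 0.16) for GCLM and -0.07 (95% interval -0.25 to 0.10) for GCLC, the latter 0.01 with the gene-length trend removed.

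SLC7A11, the cystine importer xCT that supplies cysteine for glutathione (ENSG00000151012, chromosome 4, 138164097 to 138242349, minus strand), had the largest fitted difference of the 10. It was at 3.93, 4.29 and 3.45 FPKM in mock and at 2.17, 3.19 and 3.44 FPKM with TRPV3. It was the 1 member of 10 whose groups did not overlap, with every TRPV3 library below, as in 5.39% of all genes tested; 0 of 10 had every TRPV3 library above, as in 9.49% of all genes. The separation was narrow, since TRPV3 replicate 3 (580 reads, exact Poisson 95% interval 3.16 to 3.73 FPKM) and mock replicate 3 (606 reads, 3.18 to 3.73 FPKM) differed by less than their counting error. The log2 fold change was -0.33 (SE 0.14, 95% interval -0.66 to 0.01, unadjusted p = 0.0572 and adjusted p = 0.755 by limma). Without TRPV3 replicate 1 it was -0.18 (95% interval -0.39 to 0.04), and with the gene-length trend removed -0.22 (-0.44 to -0.01). It stayed below 0 in all 17 alternatives that tested it, the lowest adjusted p being 0.506 by limma. Its interval also lay below 0 by limma-voom (-0.84 to -0.02) and by limma-voom without TRPV3 replicate 1 (-0.43 to -0.02). The same held with total-read scaling (-0.71 to -0.01) and without TRPV3 replicate 3 (-0.78 to -0.06). It held too without TRPV3 replicate 1 and mock replicate 3 together (-0.44 to -0.05), while the other alternatives included 0. SLC3A2, the heavy chain that SLC7A11 needs at the membrane, was at 209 ± 12.3 FPKM in mock and 207 ± 27.3 FPKM with TRPV3 (SD, n = 3 each).

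In the thioredoxin branch, TXNRD1, the cytosolic selenoenzyme that recharges thioredoxin (ENSG00000198431, chromosome 12, 104215779 to 104350305, plus strand), was the most abundant of the 10 genes. It was at 87.7, 78.0 and 74.7 FPKM in mock and 64.5, 80.8 and 77.1 FPKM with TRPV3, so that only TRPV3 replicate 1 fell outside the mock range. This gave a log2 fold change of -0.11 (95% interval -0.38 to 0.15), and -0.02 without that library (95% interval -0.19 to 0.16). FPKM counts all TXNRD1 transcripts together, so the starts behind the 2 promoter matches above cannot be told apart.

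SRXN1, sulfiredoxin, which restores overoxidised peroxiredoxins (ENSG00000271303, chromosome 20, 646615 to 653370, minus strand), varied most, over a range of 0.84 on the log2 scale. It was at 4.12, 4.29 and 4.92 FPKM in mock and at 2.48, 5.22 and 4.85 FPKM with TRPV3. TRPV3 replicate 1 held 118 reads, where the other libraries held 188 to 252, and its exact Poisson 95% interval of 2.05 to 2.97 FPKM lay below every other library's. The log2 fold change of -0.11 (SE 0.22, 95% interval -0.63 to 0.40) became 0.15 without that library (95% interval -0.05 to 0.35). SRXN1 shares 2292 of its 2698 exonic bases with AL121758.1 on the same strand, which was given 1 to 6 reads per library. No source used here says how reads in the shared bases were assigned, so the level of SRXN1 is uncertain. Smaller same-strand overlaps were that of NFE2L2 given above and those of GCLC (529 bases, AL033397.1) and OSGIN1 (481 bases, AC009119.2). By root mean square difference of centred log2 values over the 6 libraries, the genes most like SRXN1 were CYP51A1 (0.0680), TRIM58 (0.0691) and HELZ2 (0.0772). All of them were lowest in TRPV3 replicate 1, which follows from choosing them by likeness to SRXN1 in these libraries.

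OSGIN1, an oxidative stress-induced growth inhibitor (ENSG00000140961, chromosome 16, 83948282 to 83966332, plus strand), was the least abundant member. It was at 1.86, 1.89 and 2.44 FPKM in mock, or 106 to 154 reads, and at 2.77, 2.41 and 2.38 FPKM with TRPV3. Mock replicate 3 lay above TRPV3 replicates 2 and 3, so the groups overlapped. OSGIN1 had a log2 fold change of 0.20 (SE 0.11, 95% interval -0.05 to 0.46, adjusted p = 0.755 by limma), and 0.15 without TRPV3 replicate 1.

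By mean FPKM over the 6 libraries the order was TXNRD1 (77.1), NQO1 (62.1), GCLM (29.9), KEAP1 (17.3), NFE2L2 (12.4), GCLC (5.93), HMOX1 (5.78), SRXN1 (4.31), SLC7A11 (3.41) and OSGIN1 (2.29). From NQO1 down to GCLC each gene lay above the next in every library with no overlap of their ranges. The ranges of TXNRD1 and NQO1, and those of each neighbouring pair from GCLC down to OSGIN1, overlapped. The 2 subunits of glutamate-cysteine ligase thus differed in FPKM, GCLM at 29.9 and GCLC at 5.93, with no overlap in any library. In reads per library GCLM held 2592 to 3125 and GCLC 845 to 934. FPKM divides by the merged exons of all annotated transcripts (5420 bases for GCLM and 8646 for GCLC). The order of genes by FPKM therefore depends on these lengths, which can differ from those of the transcripts present.

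**Figure D2:**
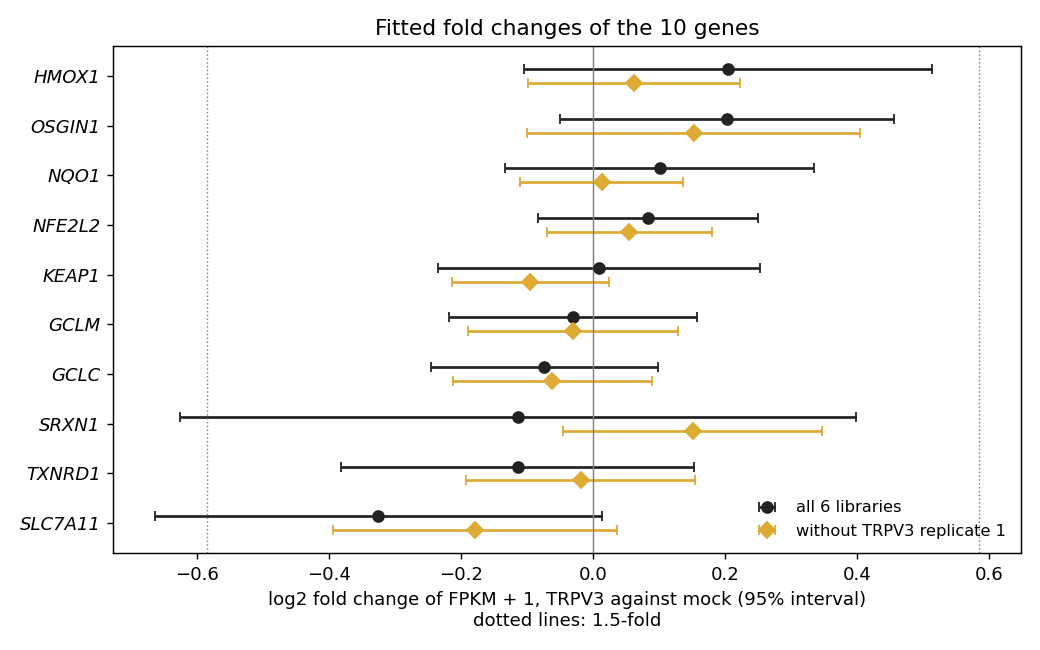
Fitted log2 fold change of FPKM + 1, TRPV3 against mock, with its 95% interval for each of the 10 genes, from all 6 libraries (black circles) and without TRPV3 replicate 1 (yellow diamonds); dotted lines mark 1.5-fold. Every interval includes 0, and without that library KEAP1 and SRXN1 change side.

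The spread among the TRPV3 libraries came mostly from replicate 1. It was the highest of 6 libraries in 5 members and the lowest in 3, together 8 of 10, close to the 76.9% over all genes tested. Against the mean of the other 5 libraries it deviated on the log2(FPKM + 1) scale by 0.47 in HMOX1 (2405 bases of exon), 0.27 in NQO1 (3254 bases), 0.25 in KEAP1 (3761 bases) and 0.24 in OSGIN1 (3460 bases). In the longer TXNRD1 (6708 bases) and SLC7A11 (9645 bases) it deviated by -0.30 and -0.55. With each library's gene-length trend removed, the deviation was smaller in HMOX1 (0.21) and SLC7A11 (-0.26), as it was in NQO1 (0.13), KEAP1 (0.17), OSGIN1 (0.12) and TXNRD1 (-0.15). It was larger in NFE2L2, from 0.12 to 0.22, and changed sign in GCLC, from -0.07 to 0.17, while GCLM went from -0.02 to 0.05. SRXN1 did not follow that order: at 2698 bases its deviation was -0.70, and -0.92 with the trend removed. TRPV3 replicates 2 and 3 differed from each other by at most 0.10 on the log2 scale in each of the 10 genes.

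**Figure D3:**
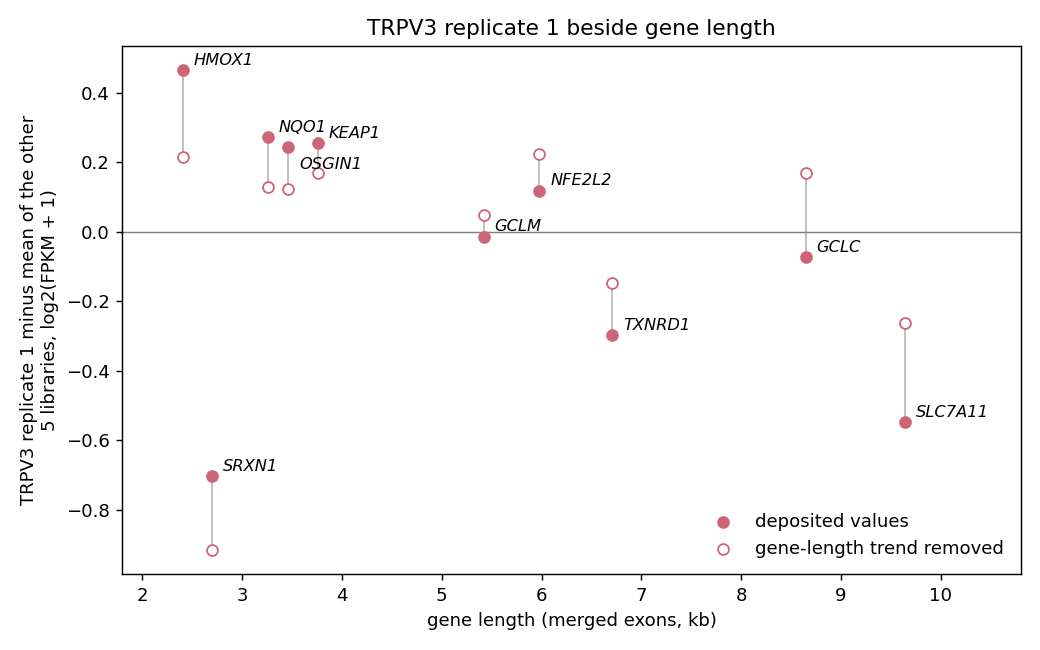
Deviation of TRPV3 replicate 1 from the mean of the other 5 libraries, in log2(FPKM + 1), against gene length in kb for the 10 genes, with deposited values (filled) and with the gene-length trend removed (open). HMOX1 lies highest at 0.47 and SLC7A11, the longest, at -0.55, while the short SRXN1 lies lowest at -0.70.

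Other genes, 110 in all, were taken from 10 lists, and 90 of them were tested. Besides antioxidant genes the lists hold oxidant-producing oxidases, ATF4 targets and heat shock genes. By limma 1 of the 90 rose, the heat-inducible chaperone HSPA6, and 0 fell, against 0.0411% of all genes called. HSPA6 stands in the heat shock list, so no gene of the antioxidant lists was called. HSPA6 was at 0.792, 0.728 and 0.602 FPKM in mock and 12.6, 10.4 and 11.1 FPKM with TRPV3, a fitted log2 difference of 2.86 (95% interval 2.63 to 3.08; adjusted p = 7.11e-05 by limma).

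Among the 12 partners of NRF2 and proteins of its degradation 0 were called. Their median log2 fold change was -0.02 with 4 of 12 above 0, and 0.06 with 10 of 12 above 0 without TRPV3 replicate 1, which was the lowest library in 7 of them. MAFF, a small MAF protein that pairs with NRF2, was at 10.01, 11.3 and 11.8 FPKM in mock and 16.1, 14.3 and 14.8 FPKM with TRPV3. The TRPV3 libraries of MAFF all lay above the mock libraries, as in 9.49% of all genes, with a log2 fold change of 0.42 (SE 0.09, 95% interval 0.21 to 0.62, limma adjusted p = 0.50). Without TRPV3 replicate 1 its adjusted p was 0.229 by limma and 0.0223 by limma-voom, which called 0.55% of all genes there. The other small MAF genes, named after their values were seen, were MAFG at 11.8 ± 0.0993 and 11.2 ± 0.726 FPKM and MAFK at 7.73 ± 0.403 and 8.48 ± 0.371 FPKM (SD, n = 3 each). The most abundant of this list were NFE2L1, a relative of NRF2, at 53.9 ± 3.15 and 49.3 ± 7.99 FPKM, and RBX1, a subunit of the ligase that KEAP1 serves, at 26.7 ± 2.07 and 33.2 ± 8.98 FPKM.

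Of 19 tested glutathione genes 16 had a fold change above 0, with a median of 0.13, but in 16 of the 19 TRPV3 replicate 1 was also the highest library, and without it 8 were above 0 and the median was -0.02. GSTP1, the most abundant glutathione transferase, was at 384, 396 and 431 FPKM in mock and 640, 409 and 394 FPKM with TRPV3. GSTO1, a transferase of the omega class, had the largest difference of that list, 0.30 (0.16 without TRPV3 replicate 1). The same held for the 12 thioredoxin and peroxiredoxin genes, of which 10 were above 0 (6 without that library) with a median of 0.13 (-0.00022 without it). Thioredoxin itself, TXN, was at 267, 289 and 255 FPKM in mock and 468, 284 and 284 FPKM with TRPV3, and the peroxidase PRDX1 at 255 ± 2.45 and 299 ± 67.1 FPKM (SD, n = 3 each).

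Genes that supply NADPH, which both systems spend, had a median of 0.08 over 9 tested (-0.02 without TRPV3 replicate 1). The most abundant were IDH1, which makes NADPH from isocitrate, at 98.7 ± 9.46 and 105 ± 8.48 FPKM, and PGD of the pentose phosphate pathway at 65.5 ± 3.78 and 72.8 ± 3.19 FPKM. NNT, the mitochondrial transhydrogenase, had the largest difference, -0.20 (-0.06 without that library). Of 8 tested genes of haem and iron, the ferritin chains FTH1 (0.14) and FTL (0.20) had log2 fold changes of -0.04 and -0.0020 without it, and HMOX2, the constitutive haem oxygenase, 0.28 and 0.11; ferritin genes have many near-identical pseudogenes, so their reads are uncertain.

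The 11 tested genes of detoxification and export had a median of 0.05 (-0.01 without TRPV3 replicate 1), with AKR1B1, an aldose reductase, at 86.1 ± 0.932 and 95.7 ± 19.1 FPKM and ABCC1, an exporter of glutathione conjugates, at 20.2 ± 0.477 and 17.9 ± 3.87 FPKM (SD, n = 3 each). In the superoxide and catalase list 3 were tested, and the cytosolic dismutase SOD1 was at 62.5 ± 4.08 and 73.7 ± 17.5 FPKM and catalase (CAT) at 9.59 ± 0.435 and 9.35 ± 0.405 FPKM. Of 9 oxidant-producing oxidase genes 3 reached 1 FPKM, the most abundant being CYBA, a membrane subunit of NADPH oxidases, at 99.3 ± 9.61 and 113 ± 27.6 FPKM, and DUOX1, which makes hydrogen peroxide, at 2.47 ± 0.132 and 2.10 ± 0.238 FPKM.

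SLC7A11 is also a target of the stress factor ATF4, and the 6 tested genes of that list had a median of 0.09, or 0.0030 without TRPV3 replicate 1. ATF4 was at 166 ± 6.75 and 186 ± 34.0 FPKM. DDIT3, a pro-apoptotic factor downstream of it, had the largest difference, 0.44 (0.29 without that library, limma adjusted p = 0.755 with all). Every TRPV3 library of DDIT3 lay above every mock library, as in 9.49% of all genes. SLC7A5, another amino acid transporter that pairs with SLC3A2, was at 859, 849 and 843 FPKM in mock and 608, 756 and 747 FPKM with TRPV3. Every TRPV3 library of SLC7A5 lay below every mock library, as in 5.39% of all genes. Its fitted difference was -0.28 (SE 0.12, adjusted p = 0.755 by limma), and -0.18 without TRPV3 replicate 1. SLC7A11 also had -0.18 in those libraries, but log2(FPKM + 1) understates differences of low genes such as SLC7A11. By limma-voom in those libraries SLC7A11 had -0.22.

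HMOX1 is inducible by heat shock factors as well, and all 7 tested heat shock genes had a fold change above 0, with a median of 0.24 (0.22 without TRPV3 replicate 1, then 6 of 7 above 0). In 6 of the 7 the TRPV3 libraries all lay above the mock libraries, as in 9.49% of all genes. HSPA1A was at 65.2, 65.4 and 64.0 FPKM in mock and 97.9, 83.7 and 85.0 FPKM with TRPV3, and the most abundant, HSPB1, at 174 ± 8.99 and 201 ± 59.4 FPKM (SD, n = 3 each). HSPA1A did not pass by limma (adjusted p = 0.396, or 0.0563 without TRPV3 replicate 1), but it passed by limma-voom without that library (adjusted p = 0.0023). HSPA1B, its near-identical neighbour, named after its values were seen, had a limma adjusted p of 0.26 with all libraries, and was called without TRPV3 replicate 1 by limma (0.0336) and limma-voom (0.0011). Which of the pair a read came from is uncertain. HMOX1 was at 7.80, 5.69 and 5.39 FPKM in TRPV3 replicates 1 to 3, where the mock range was 4.92 to 5.48 FPKM. Whether heat shock factors act on HMOX1 in these cells was not tested.

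**Figure D4:**
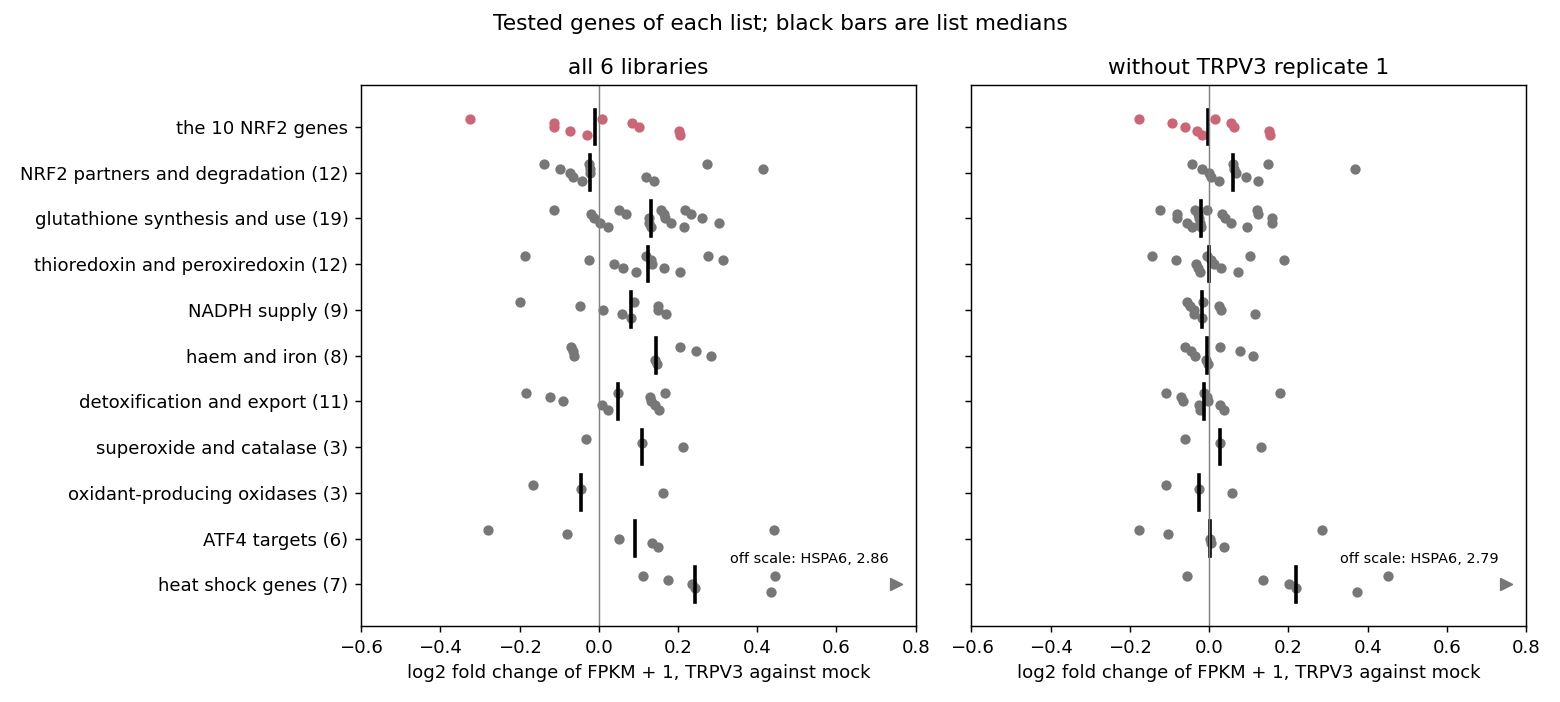
Fitted log2 fold changes (horizontal axis, FPKM + 1, TRPV3 against mock) of the 10 genes and of the tested genes of 10 other lists, 1 point per gene and a black bar at each median, with all 6 libraries (left) and without TRPV3 replicate 1 (right); HSPA6 lies off scale and is drawn as a triangle. The median of the 10 genes is -0.01 and -0.0026, those of the glutathione and thioredoxin lists go from 0.13 to about 0, and that of the heat shock genes is 0.24 and 0.22.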

How the data were processed

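Per the labels' protocols, total RNA of SZ95 cells was extracted with TRIzol and made into libraries with a NEBNext Ultra RNA kit. The submitters' processing notes name HISAT2 2.0.5 and hg38; no source used here gives the counting tool, its strand setting or the annotation. The deposited table holds FPKM per gene, made by the authors, with gene lengths that for the 10 genes equal the merged exons of GENCODE 29. FPKM times length gave whole reads (tolerance 0.02 reads) for 100% of values; 3 reads correspond to 0.165 to 0.185 FPKM for a gene of 1 kb. Columns were matched to samples by group and replicate number. log2(FPKM + 1) was fitted with limma 3.58.1 in R 4.3.3 (group term, empirical Bayes with trend) over genes whose mean reached 1 FPKM; fold changes on this scale understate those of low genes. The procedure was tested on simulated reads with 2-fold changes and the same dispersion in every gene. No simulated library was made to stand apart, so that test does not show what could be found in these libraries. Alternatives were a pseudocount of 0.1, other filters (none, 5 FPKM) and scalings, no trend, a replicate block, left-out libraries, a gene-length trend taken out (lowess with a span of 0.3) and limma-voom on recovered reads. All 10 genes are named; of each other list, called genes, the 2 most abundant and the 1 with the largest difference. The genes, lists and alternatives were chosen with earlier results of these data known. p-values reflect the spread between samples described as biological replicates. Figures were drawn with matplotlib 3.10.9.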

Additional observations from a re-analysis of the deposited data

How the results depend on the processing

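None of the 10 genes was called in any of the 18 alternatives, and their lowest limma adjusted p was 0.506. Of 177 values of a gene under an alternative 162 kept their sign and 15 did not. HMOX1, TXNRD1, SLC7A11 and OSGIN1 kept theirs throughout; SRXN1, SLC7A11 and OSGIN1 were not tested with a minimum of 5 FPKM. KEAP1 (0.01) was -0.087 with TPM, -0.042 with quantile and -0.037 with total-read scaling and -0.024 with the length trend removed. NFE2L2 was -0.0075 with TPM scaling and GCLC 0.013 with the length trend removed. With 1 library left out KEAP1 ran from -0.095 to 0.072, GCLM from -0.072 to 0.029 and SRXN1 from -0.27 to 0.15. Without TRPV3 replicate 1 and mock replicate 3 together KEAP1 was -0.12, NQO1 -0.021 and SRXN1 0.21. By limma-voom without TRPV3 replicate 1 KEAP1 was -0.10 and SRXN1 0.18. The median over all genes tested moved as well, by -0.091 with TPM, -0.015 with quantile and -0.040 with total-read scaling. The cause of the changes in these members was not tested. Before adjustment 0 of the 10 had a p under 0.05, against 4 without TRPV3 replicate 1 and mock replicate 3 together and 0 or 1 in each other alternative. That 1 gene was SLC7A11, or OSGIN1 without mock replicate 3. The intervals stayed inside 2-fold in all alternatives, and 0 to 4 of them passed 1.5-fold. Over all genes 5 were called, and 2 with no filter, 3 with a minimum of 5 FPKM, 2 to 8 with 1 library left out (8 without TRPV3 replicate 1), 10 without that library and mock replicate 3, and 67 by limma-voom without that library. Of the genes of the 10 other lists 1 was called, and 1 to 2 with 1 library left out. Without TRPV3 replicate 1 and mock replicate 3 the count was 2, and by limma-voom without TRPV3 replicate 1 it was 4 (MAFF and 3 heat shock genes).

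With the replicate number as a block 3 genes were called in all and 0 of the 10. Same-numbered deviations from the group means correlated across genes by -0.27, -0.04 and -0.17 for replicates 1, 2 and 3. With 3 libraries per group and TRPV3 replicate 1 apart from the rest, these values cannot decide whether same-numbered libraries were handled together. OSGIN1 held 106 to 169 reads per library, SRXN1 118 to 252 and TXNRD1 7636 to 10336. Counting error is relatively larger for OSGIN1 and SRXN1 than for TXNRD1. On log2(FPKM + 1), which understates differences of low genes, the SE of OSGIN1 (0.11) was no larger than that of TXNRD1 (0.11). With a pseudocount of 0.1 the interval of OSGIN1 (-0.07 to 0.63) was wider than that of TXNRD1 (-0.39 to 0.16). By limma-voom the OSGIN1 interval was wider too (-0.06 to 0.64 against -0.38 to 0.15).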
